A study of Malus domestica with 18 samples.

Results

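The 83 membrane transporter and aquaporin genes described here were measured by RNA-seq in the skin of "Golden Delicious" apple (Malus domestica) fruit. They were chosen from the 2856 genes of the deposited table by their descriptions, which name the closest match of each gene in a protein database. A description had to hold the word transporter, aquaporin, intrinsic protein, antiporter or permease, and not chloroplastic, auxin or zinc finger, and 3 genes that matched were left out by name (MD09G1140300, MD10G1227800 and MD10G1080000). No measured value entered this choice. By substrate, the descriptions gave 18 ABC transporters, 15 carriers of nitrate, ammonium, peptides or amino acids, 11 of potassium, other cations and protons, 10 of phosphate and sulfate, 9 of sugars and polyols, 5 of metals and boron, 4 of nucleobases and related compounds, 4 of polyamines and organic cations, 3 aquaporins, 2 lipid transporters, 1 carrier of malate and 1 mitochondrial carrier.

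Fruits were either enclosed at 20 days after flowering (DAF) in an opaque paper bag of 2 layers (T) or left unbagged (CK). Skin was taken at DAF30 (CK1 and T1), DAF60 (CK2 and T2) and DAF150 (CK3 and T3), with 3 libraries in each of the 6 groups and 18 libraries in all. Each library came from the mixed peel of 3 fruits of the one cultivar, with no genetic change in any group, and 3 trees served as replicates of each treatment. Whether a tree was sampled at more than 1 stage is not given, so the p-values treat the libraries as independent. The bag excludes light and also alters the air around the fruit, and these cannot be told apart in this design. Unbagged fruit of this cultivar forms russet, a rough corky skin, and bagged fruit was used as the comparison that stays smooth.

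Transport proteins move water, ions and small molecules across the membranes of a cell. Aquaporins are channels for water and small solutes, carriers and permeases move 1 substrate with or against a gradient, and ABC transporters use ATP to export lipids, hormones and defence compounds. In a plant surface, members of the G family of ABC transporters export the building blocks of cutin, wax and suberin, the polyester of corky cells, while sugar, amino acid and ion carriers supply the fruit and load its vacuoles.

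The unit of level is FPKM, the number of sequenced fragments relative to the length of a gene and to the depth of its library, so levels can be compared between genes. The authors kept in the table only genes that differed between bagged and unbagged skin when stages were combined, with 2246 genes lower and 610 higher in bagged skin, so the direction of T against CK over all stages is built into the table. Of the 83 transporter genes, the mean over T was below the mean over CK in 66 and above it in 17. Tests were run with limma on log2(FPKM + 1) over 1399 genes of the table, those that reached 1 FPKM in 3 libraries or more, and a call needs a Benjamini-Hochberg adjusted p of at most 0.05 over those genes. Of the 83 genes, 42 met this minimum. Among the 42, 29 would have met it without any 1 group, and 2 met it only through CK1, 2 only through CK2, 3 only through CK3, 1 only through T2 and 1 only through T3, while 4 needed each of 2 groups. Libraries of 1 group correlated at 0.836 to 0.981 (Pearson) over the 42 genes. All 1399 genes had a median log2 fold change of -0.12 (DAF30), -1.06 (DAF60) and -0.37 (DAF150) for T against CK, and median centring of the libraries moved these to 0.14, 0.10 and 0.096. Counts after this centring or after quantile normalization, given below, show how far a gene stands from the other selected genes. Centring shifts every gene by the same log2 amount, also a gene near 0 FPKM in both groups. Such a gene can then be called higher without a rise in FPKM.

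At DAF30, 2 of the 42 transporter genes were lower in bagged skin and 0 were higher, against 12.4% of all genes tested lower and 2.07% higher, and 5 of the 42 had an unadjusted p under 0.05. The 2 calls became 1 without CK1 replicate 1, CK1 replicate 2 or T1 replicate 1 and 0 without T1 replicate 3. At DAF60, 23 were lower and 5 higher, against 61.9% lower and 9.51% higher among all genes tested. At DAF150, 10 were lower and 7 higher, against 31.5% and 12.6%. The lower genes were 54.8% of the 42 at DAF60 and 23.8% at DAF150, both below the share of the whole table, and the 7 higher at DAF150 were 16.7%. Over the 3 stages together, 29 were lower and 9 higher, against 75.1% and 15.4%, a direction that the selection of the table fixes in large part. After median centring the split at DAF60 became 16 higher and 8 lower, and after quantile normalization 9 higher and 8 lower. At DAF150 the split became 9 higher and 4 lower after centring and 9 higher and 6 lower after quantile normalization. Among the 1399 genes, 240 were higher and 289 lower at DAF150 after centring, and 218 and 277 after quantile normalization. Without CK3 replicate 3 the lower calls at DAF150 rose from 10 to 19 while the higher calls stayed at 7. The calls at the later stages overlapped in part. Of the genes lower at DAF60, 5 of 23 were also lower at DAF150, which is 5 of the 10 lower there, and 3 genes were higher at both stages out of 5 and 7. No gene had opposite calls at these stages. A gene called at 1 stage only need not differ between stages, which was tested separately below. The overlap was not counted over all genes tested.

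**Figure D1:**
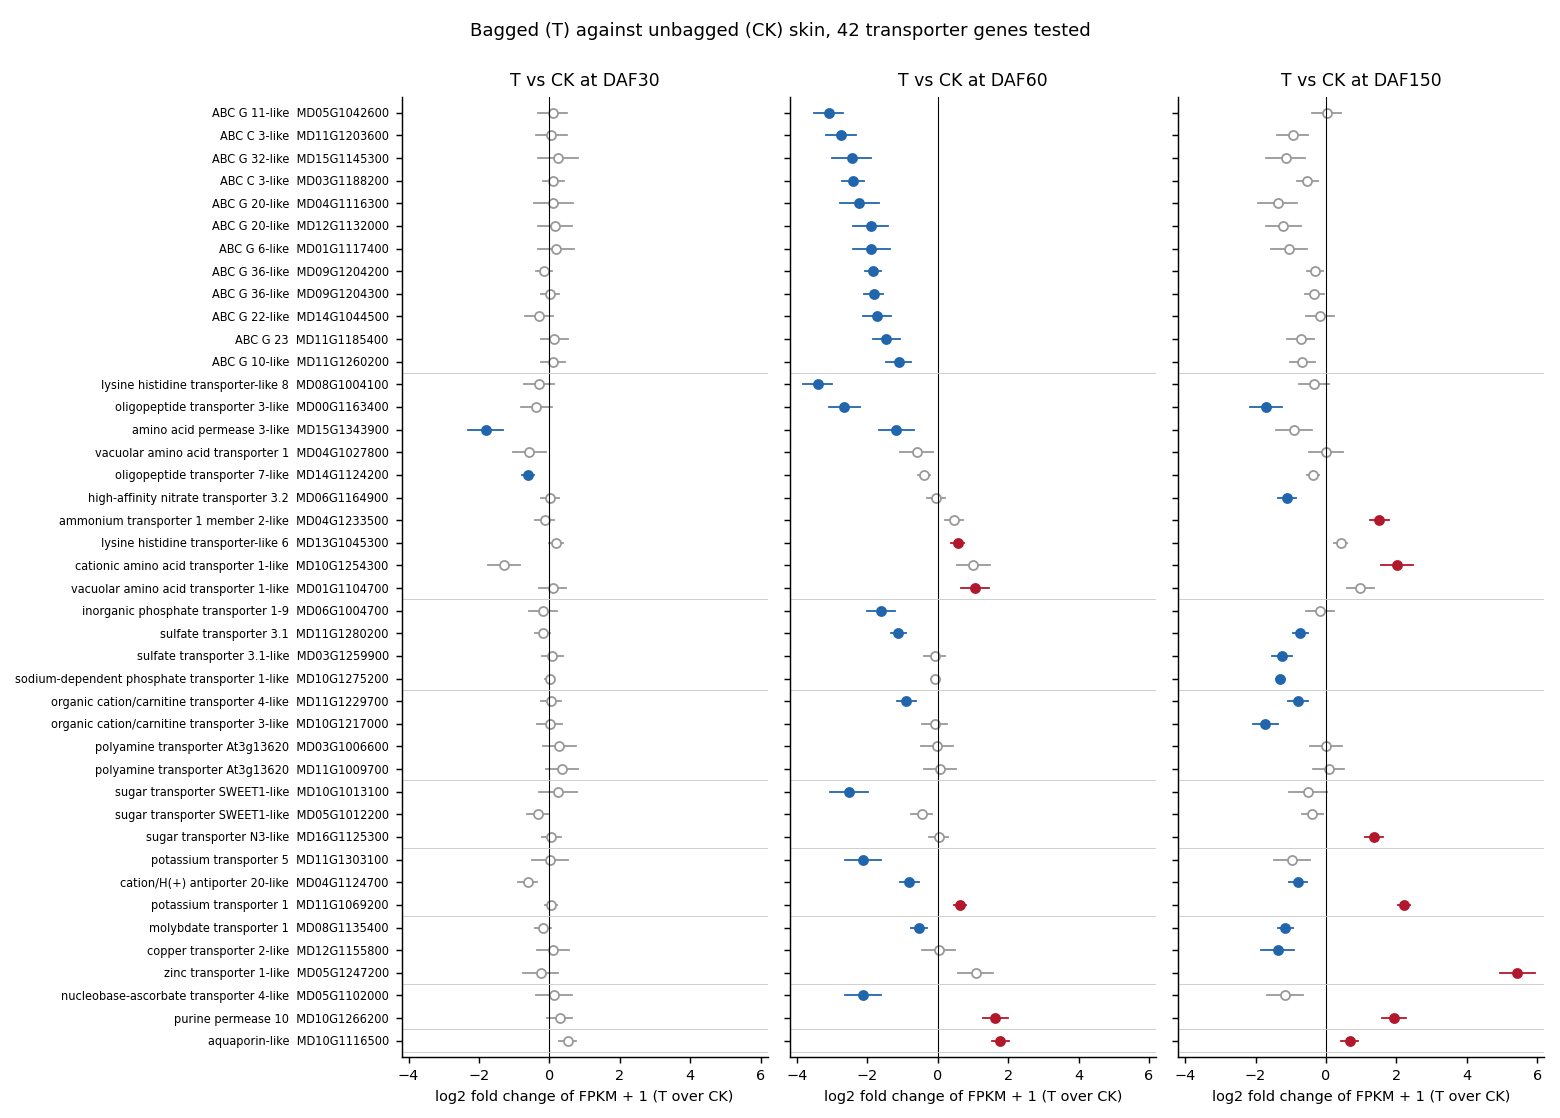
Log2 fold change of FPKM + 1 in bagged (T) over unbagged (CK) skin at DAF30, DAF60 and DAF150 for the 42 transporter genes tested, grouped by substrate, with bars of 1 standard error; filled points passed an adjusted p of 0.05 in limma (blue lower, red higher), open points did not. The 12 ABC transporter genes at the top were all lower at DAF60. After median centring or quantile normalization 5 of 12 were called lower, against 156 and 216 of the 1399 genes tested. MD11G1260200 was at 0.046 after centring. The zinc transporter 1-like gene stood apart at DAF150 with 5.43.

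The ABC transporter genes moved together at DAF60. All 12 tested (of 18 in the table) were lower in T2 than in CK2, with log2 fold changes between -3.09 and -1.11 and a median of -1.90, against the median of -1.06 over all genes tested. After median centring or quantile normalization 5 of the 12 passed the test as lower. Of all 1399 genes tested, 156 were lower after centring and 216 after quantile normalization. Centring turned MD11G1260200 to 0.046. At DAF30 none of the 12 was called and 0 had an unadjusted p under 0.05 in limma. At DAF150 0 of 12 passed the adjusted p, 3 had an unadjusted p under 0.05, and the median was -0.69. That count rested on the libraries, with 7 of 12 lower without CK3 replicate 3, 4 without CK2 replicate 3, 3 without CK2 replicate 2 and 1 without T3 replicate 1. The minimum on low values was met by 9 of the 12 without the CK2 libraries, in which these genes were high.

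MD05G1042600 (ABC transporter G family member 11-like, chromosome 5, 7269104 to 7273690 of GDDH13 v1.1) had the largest fall of the family. In Arabidopsis, ABCG11 exports wax and cutin precursors from epidermal cells. Its FPKM was 13.7, 10.6 and 17.2 in CK2 and 0.99, 0.64 and 0.53 in T2. The log2 fold change was -3.09 (standard error 0.41, adjusted p = 3.4e-05), and the lowest CK2 library lay above every T2 library. At DAF150 the same gene read 1.76, 6.16 and 2.9 FPKM in CK3 and 4.4, 3.33 and 2.4 in T3. There the groups overlapped and the log2 fold change was 0.01 (adjusted p = 1.0).

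Members whose closest matches act in suberin or cutin followed, with CK2 libraries that differed strongly from each other. MD01G1117400 (ABC transporter G family member 6-like, chromosome 1, 23124793 to 23127048) and a pair of G family member 20-like genes match proteins needed for suberin barriers in Arabidopsis roots and seed coats. MD01G1117400 had an FPKM of 39.0, 47.2 and 9.35 in CK2 and of 7.44, 5.62 and 6.06 in T2. The third CK2 library was thus close to the T2 libraries, though still above them, and the log2 fold change was -1.89 (standard error 0.52, adjusted p = 0.00427). MD04G1116300 (20-like) read 16.6, 34.9 and 4.9 FPKM in CK2 against 2.64, 2.33 and 1.97 in T2, a log2 fold change of -2.23 (adjusted p = 0.00216). MD12G1132000 (20-like) read 14.98, 27.71 and 5.39 FPKM against 4.81, 1.97 and 2.23, a log2 fold change of -1.91 (adjusted p = 0.00267). In MD15G1145300 (ABC transporter G family member 32-like), whose Arabidopsis match takes part in cutin formation, the values were 12.3, 23.1 and 2.85 FPKM in CK2 and 1.28, 0.95 and 0.72 in T2. In all 4 genes replicate 2 of CK2 was the highest library and replicate 3 the lowest, and no T2 library reached the lowest CK2 library. None of the 4 is among the 5 ABC genes that passed after the scalings. Median centring left log2 values of -0.73 for MD01G1117400, -1.07 for MD04G1116300, -0.75 for MD12G1132000 and -1.28 for MD15G1145300, and quantile normalization -0.88, -1.15, -0.73 and -1.36.

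The next 3 ABC members had another order among the CK2 libraries. MD11G1203600 (ABC transporter C family member 3-like, of a family that carries glutathione conjugates into the vacuole) had the highest mean of the family and read 81.0, 33.5 and 36.4 FPKM in CK2 and 8.53, 4.47 and 5.81 in T2. Its log2 fold change was -2.74 (standard error 0.43, adjusted p = 7.5e-05). Its gene model spans the model of another member, MD11G1203500, so the pair may share reads. MD03G1188200, also C family member 3-like, read 15.2, 5.9 and 9.02 FPKM in CK2 against 0.99, 1.04 and 0.87 in T2 (log2 fold change -2.40, adjusted p = 2.5e-05). MD14G1044500 (G family member 22-like, whose Arabidopsis match is linked to stomatal water loss) had 8.21, 25.9 and 18.3 FPKM in CK2 and 3.77, 5.57 and 3.2 in T2 (log2 fold change -1.73, adjusted p = 0.00127), and its call was lost after median centring (-0.57) and quantile normalization (-0.59). The 4 remaining genes tested (G family 36-like, 23 and 10-like) had CK2 means between 2.0 and 3.35 FPKM and T2 means between 0.137 and 0.407 FPKM. Among them, MD09G1204200 (36-like) and MD11G1185400 (23) met the minimum on low values through CK2 only, and MD11G1260200 (10-like) needed both CK2 and CK3. Both 36-like genes share their closest match with MD17G1184700, which was not tested, so their reads may be split. The call for 1 of them, MD11G1260200 (10-like, named after its values were seen), was lost without CK2 replicate 2, where its log2 fold change was -0.66 instead of -1.11.

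**Figure D2:**
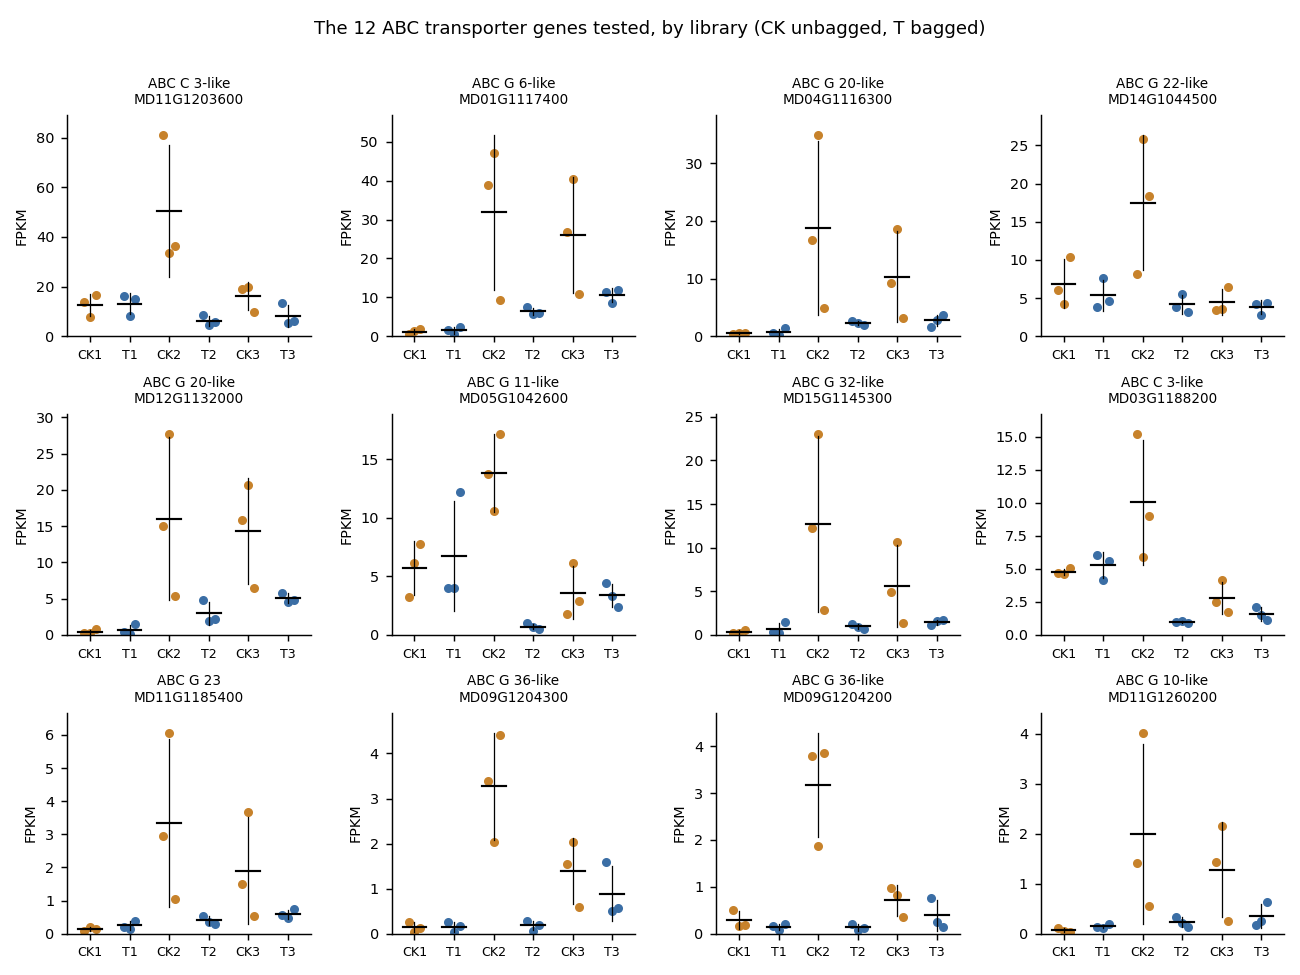
FPKM of the 12 ABC transporter genes tested in each of the 18 libraries; points are libraries (orange CK, blue T; 1, 2 and 3 for DAF30, DAF60 and DAF150), horizontal bars group means and vertical bars 1 SD (n = 3). CK2 libraries lay above all T2 libraries in each panel on the FPKM scale (after median centring MD11G1260200 turned to 0.046 on the log2 scale). How many of all genes tested were apart in this way was not counted, and 61.9% of them were called lower at DAF60. In G family 6-like, 20-like and 32-like CK2 ranged widely, as from 9.35 to 47.2 FPKM in MD01G1117400.

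Summed over the 12 genes, the ABC level was 213, 223 and 113 FPKM in CK2 and 31.8, 23.3 and 22.2 in T2. At DAF30 the sums were 29.9, 25.6 and 44.0 FPKM in CK1 and 33.4, 25.7 and 44.9 in T1, and these ranges overlapped. At DAF150 they were 89.1, 133 and 44.4 FPKM in CK3 and 47.1, 31.8 and 38.3 in T3, where CK3 replicate 3 lay inside the T3 range. In CK3, 10 of the 12 genes were highest in replicate 2 and 10 were lowest in replicate 3, against 7 and 8 of the 30 other transporter genes. In CK2 only 7 of the 12 were highest in replicate 2 and 6 lowest in replicate 3, against 10 and 7 of the 30, so the order of the CK2 sums was not that of every gene. A list of 11 genes of suberized cells (feruloyl transferases, CYP86 hydroxylases and acyltransferase 5), 10 of them tested, moved with these sums in CK2 and CK3. It summed to 133, 209 and 41.6 FPKM in CK2 and 30.3, 23.9 and 31.3 in T2. In CK3 it summed to 63.1, 129 and 20.8 FPKM and in T3 to 21.5, 23.0 and 26.9, and 9 of the 11 had a lower mean in T than in CK at both stages. The other 2 went the other way at both. Of them, MD01G1064900 (cytochrome P450 86A8) had means of 3.91 FPKM in CK2 and 13.4 in T2, and 0.763 in CK3 and 3.31 in T3. Its means of 7.11 in CK1 and 13.4 in T2 were the largest of the list in those groups, so it weighs heavily on their sums. The 3 unbagged libraries of DAF60, and those of DAF150, therefore stood in the same order for both sums, which those of DAF30 did not. The order was also that of another list, of 27 genes of xylem and secondary wall, 16 of them tested and many of them laccases. That list summed to 67.9, 88.2 and 31.1 FPKM in CK2 and 14.3, 11.8 and 10.9 in T2, with 24 of 27 lower in mean T2. In CK3 it summed to 55.2, 73.3 and 18.8 FPKM. Laccases held most of its CK2 sum, with the highest means at 26.5 (MD11G1057600) and 15.3 FPKM (MD04G1142300). Its 5 cellulose synthase genes of the secondary wall had CK2 means of only 0.037 to 0.21 FPKM. The part of either cell type in the ABC result was not tested. In bulk skin, fewer cells of a type and less RNA per cell cannot be told apart. Leaving out replicate 2 of CK2 and of CK3 together, a setting chosen after the data were seen, left 12 of 12 ABC genes lower at DAF60 and 0 of 12 called at DAF150. Photosynthetic genes fell as well, with a sum over 17 genes of 2263 to 4932 FPKM in CK2 and 483 to 587 in T2, and 16 of 17 with a lower mean in T2. The 5 cuticle genes of the table, 2 of them tested, summed to 0.72 to 15.8 FPKM over the 18 libraries, and no marker list was at 0 in every library. With no other tissue in the series, these sums do not check the label of skin.

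**Figure D3:**
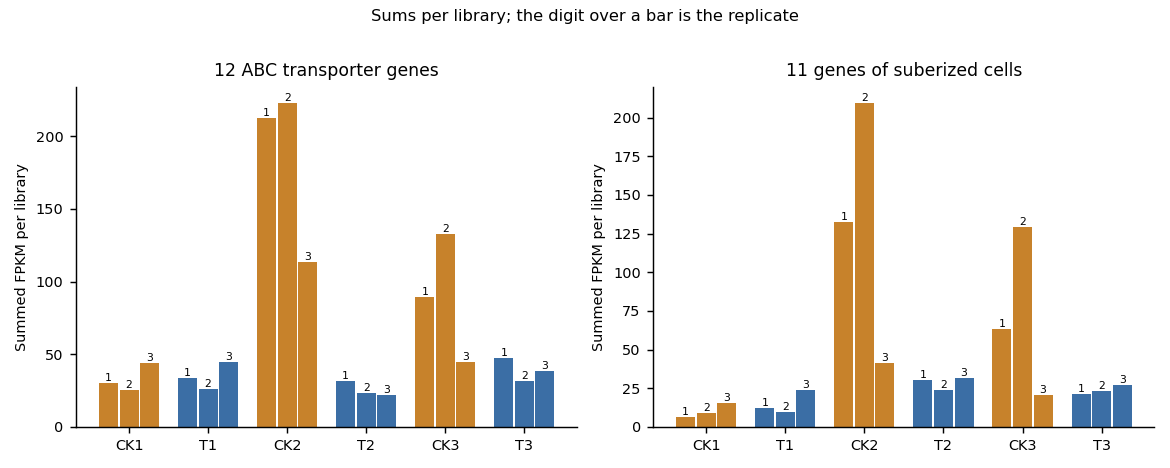
Summed FPKM per library of the 12 ABC transporter genes tested (left) and of the 11 genes of suberized cells (right), for unbagged (CK, orange) and bagged (T, blue) skin; each bar is 1 library and the digit is its replicate. In both panels replicate 2 is the tallest and replicate 3 the shortest bar of CK2 and of CK3, at 223 and 113 FPKM of ABC genes in CK2.

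Nitrogen carriers held the genes called at DAF30. MD15G1343900 (amino acid permease 3-like, chromosome 15, 40038078 to 40040635, of a family that takes up amino acids at the plasma membrane) had the highest mean level of the 83 genes. Its FPKM was 305, 301 and 264 in CK1 and 89.4, 94.5 and 64.3 in T1. All T1 libraries were lower, the log2 fold change was -1.81 (standard error 0.50, adjusted p = 0.0225), and the call was lost without CK1 replicate 1 (-1.78), T1 replicate 1 (-1.88) or T1 replicate 3 (-1.65). At DAF60 the libraries of this gene overlapped, at 326, 141 and 147 FPKM in CK2 and 36.4, 86.4 and 183 in T2. The call there (log2 fold change -1.17, adjusted p = 0.0451) was lost without any of 13 libraries, and the value moved to -0.78 without CK2 replicate 1 and to -0.58 without T2 replicate 1. It was also lost after median centring (-0.012) and quantile normalization (-0.74). MD14G1124200 (oligopeptide transporter 7-like), the other gene called at DAF30, read 1.15, 2.12 and 1.64 FPKM in CK1 and 0.77, 0.75 and 0.58 in T1. Its log2 fold change was -0.62 (adjusted p = 0.0207), -0.49 without CK1 replicate 2 and -0.57 without T1 replicate 3, where the call was lost. It was also lost after median centring (-0.36) and quantile normalization (-0.47), and the gene met the minimum on low values through CK1 only.

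At the later stages nitrogen carriers were called in both directions. Among the 10 tested of 15, 3 were lower and 2 higher at DAF60, beside 61.9% and 9.51% of all genes tested, and 2 were lower and 2 higher at DAF150, beside 31.5% and 12.6%. After median centring these counts became 2 lower and 6 higher at DAF60 and 1 lower and 4 higher at DAF150. Over all 1399 genes tested, centring gave 156 lower and 331 higher at DAF60 and 289 and 240 at DAF150. MD08G1004100 (lysine histidine transporter-like 8, an amino acid carrier) fell most of all 42 genes at DAF60, from 20.1, 7.39 and 14.0 FPKM in CK2 to 0.28, 0.41 and 0.23 in T2. The groups were far apart (log2 fold change -3.41, standard error 0.42, adjusted p = 2e-05), while at DAF150 it read 2.44, 2.43 and 3.26 FPKM in CK3 and 3.25, 2.03 and 0.91 in T3 and was not called. MD00G1163400 (oligopeptide transporter 3-like, on unplaced sequence, whose Arabidopsis match moves iron and copper in the phloem) was lower at both stages. It read 30.2, 6.73 and 5.07 FPKM in CK2 against 0.51, 0.97 and 0.99 in T2, and 2.75, 4.05 and 2.83 in CK3 against 0.46, 0.18 and 0.23 in T3. No T library reached a CK library at either stage, and the log2 fold changes were -2.65 (adjusted p = 0.00013) and -1.70 (adjusted p = 0.00486).

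Other nitrogen carriers rose in bagged skin late. Most markers of xylem and secondary wall also had higher means in T3, where the list of 27 summed to 244, 42.04 and 76.05 FPKM, a range that overlaps that of CK3, and 7 of 27 were lower in mean T3 than in CK3. Its 5 cellulose synthase genes of the secondary wall had means of 0.31 to 1.74 FPKM in CK3 and 2.89 to 8.68 in T3. The part of these cells in the rises at DAF150 was not tested. The calls at DAF150 of the cationic amino acid, ammonium, zinc, potassium and sugar carriers given here held without T3 replicate 1. T3 replicates 2 and 3, which stay in that fit, also held these markers, at 42.04 and 76.05 FPKM, so it does not test their part. MD10G1254300 (cationic amino acid transporter 1-like, which carries basic amino acids) read 20.9, 17.7 and 49.9 FPKM in CK3 and 104, 71.5 and 178 in T3. Every T3 library was above every CK3 library, with a log2 fold change of 2.01 (standard error 0.46, adjusted p = 0.00173), whereas at DAF30 it read 7.86, 10.3 and 4.79 FPKM in CK1 and 3.45, 1.42 and 2.65 in T1, a log2 difference of -1.29 that was not called (adjusted p = 0.0689). MD04G1233500 (ammonium transporter 1 member 2-like) had 0.36, 0.49 and 0.89 FPKM in CK3 and 5.46, 3.25 and 2.26 in T3. These did not overlap (log2 fold change 1.52, adjusted p = 0.00018), but the gene met the minimum on low values through T3 only. MD06G1164900 (high-affinity nitrate transporter 3.2, of a family of partner proteins of nitrate carriers) went the other way, with 1.25, 3.53 and 2.35 FPKM in CK3 and 0.51, 0.36 and 0.66 in T3 (log2 fold change -1.11, adjusted p = 0.00199). It met the minimum through CK3 only, and its call was lost after median centring (-0.65). MD01G1104700 (vacuolar amino acid transporter 1-like) rose at DAF60, from 0.29, 0.87 and 1.28 FPKM in CK2 to 2.98, 2.1 and 2.96 in T2 (log2 fold change 1.05, adjusted p = 0.0248). Its call was lost without CK2 replicate 1 (0.82), T2 replicate 1 (0.99) or T2 replicate 3 (0.99). The smallest rise called at DAF60 was that of MD13G1045300 (lysine histidine transporter-like 6), with a log2 fold change of 0.57, and of 0.47 without T2 replicate 2, where the call was lost. It met the minimum through T2 only.

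Among the cation carriers, MD11G1069200 (potassium transporter 1, chromosome 11, 5933673 to 5938162), of a family of potassium carriers, rose in bagged skin. It read 0.53, 0.61 and 0.69 FPKM in CK3 and 6.69, 6.71 and 5.93 in T3. At DAF60 it read 0.55, 0.57 and 0.57 FPKM in CK2 and 1.57, 1.58 and 1.18 in T2. The groups were apart at both stages, with log2 fold changes of 0.64 (standard error 0.17, adjusted p = 0.00341) and 2.21 (standard error 0.17, adjusted p = 8.2e-08), and at DAF30 the value was 0.04. Both rises held after either scaling. MD11G1303100 (potassium transporter 5), whose Arabidopsis match takes up potassium when it is scarce, fell at DAF60 instead. It had 7.85, 3.5 and 5.01 FPKM in CK2 and 0.49, 0.57 and 0.26 in T2 (log2 fold change -2.11, adjusted p = 0.00179), and its libraries overlapped at DAF150. The call at DAF60 was lost after median centring (-0.96) and quantile normalization (-1.10). This gene shares its closest match with MD11G1302600 on the same chromosome, so reads of the pair may be split. MD04G1124700 (cation/H(+) antiporter 20-like, an exchanger of cations for protons) was lower at DAF60 and DAF150, by -0.81 and -0.79 on the log2 scale, with T3 at 0.02, 0.02 and 0.11 FPKM. After median centring its value at DAF60 turned to 0.35 and its call at DAF150 was lost (-0.33). Its call at DAF60 was lost without CK2 replicate 1 (-0.61) or T2 replicate 1 (-0.71), and at DAF150 without CK3 replicate 2 (-0.71), T3 replicate 1 (-0.77) or T3 replicate 2 (-0.77), and its model overlaps that of MD04G1124500.

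The largest change between T and CK at any stage was that of a metal carrier at DAF150. MD05G1247200 (zinc transporter 1-like, of the ZIP family that takes up zinc; chromosome 5, 37833961 to 37836957) read 2.24, 2.14 and 3.62 FPKM in CK3 and 61.4, 283 and 211 in T3. The lowest T3 library was many times the highest CK3 library, and the log2 fold change was 5.43 (standard error 0.49, adjusted p = 5.3e-07). At DAF60 the libraries overlapped, at 2.28, 5.88 and 6.17 FPKM in CK2 and 5.96, 16.02 and 11.95 in T2, and the log2 difference of 1.08 was not called (adjusted p = 0.0592). MD08G1135400 (molybdate transporter 1) was lower at DAF150, with 2.83, 4.23 and 4.34 FPKM in CK3 and 1.03, 1.22 and 1.17 in T3 (log2 fold change -1.15, adjusted p = 0.0004). At DAF60 its value of -0.53 turned to 0.63 after median centring and to 0.47 after quantile normalization, and its call was lost without CK2 replicate 1 (-0.31), CK2 replicate 2 (-0.57), T1 replicate 1 (-0.53), T2 replicate 2 (-0.45) or T2 replicate 3 (-0.52). MD12G1155800 (copper transporter 2-like) was called lower at DAF150 on 1 high library, with 11.5, 1.26 and 1.1 FPKM in CK3 and 0.87, 0.36 and 0.33 in T3. Its log2 fold change of -1.38 became -0.54 without CK3 replicate 1, where the call was lost, as it was without T3 replicate 2 (-1.31) or T3 replicate 3 (-1.29), after median centring (-0.92) and after quantile normalization (-0.96). It met the minimum through CK3 only.

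Sulfate, phosphate and organic cation carriers were lower in bagged skin wherever they were called at a stage before scaling. Median centring turned MD11G1280200 and MD11G1229700 at DAF60 to 0.037 and 0.27 and gave 2 phosphate or sulfate genes as higher there. These 2, MD03G1259900 and MD10G1275200, were at or below 0.19 FPKM in every CK2 and T2 library. Their calls after centring are therefore not a rise in FPKM. MD03G1259900 (sulfate transporter 3.1-like, chromosome 3, 34685140 to 34691441, of a group of sulfate carriers) was among the highest levels of the whole set at DAF150. It read 190, 132 and 305 FPKM in CK3 and 62.9, 75.7 and 116 in T3. The groups did not overlap, with a log2 fold change of -1.25 (standard error 0.29, adjusted p = 0.00205), but under median centring the value was -0.79 and under quantile normalization -0.56, and neither was called. MD10G1275200 (sodium-dependent phosphate transporter 1-like) had 2.88, 2.04 and 1.82 FPKM in CK3 and 0.33, 0.29 and 0.3 in T3 (log2 fold change -1.30, adjusted p = 1e-06). It met the minimum through CK3 only. MD11G1280200 (sulfate transporter 3.1) had log2 fold changes of -1.12 at DAF60 and -0.73 at DAF150, and the latter call was lost without CK3 replicate 2 (-0.54), with median centring (-0.27) and with quantile normalization (-0.45), which also ended the call at DAF60 (-0.40). MD06G1004700 (inorganic phosphate transporter 1-9, of a family of root phosphate importers) read 16.0, 4.97 and 5.54 FPKM in CK2 and 1.26, 2.4 and 2.09 in T2. These did not overlap (log2 fold change -1.60, adjusted p = 0.00212), and at DAF30 and DAF150 they did. This call was lost with median centring (-0.44) and with quantile normalization (-0.39).

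Of the 4 organic cation and polyamine carriers, MD10G1217000 (organic cation/carnitine transporter 3-like) read 29.6, 6.91 and 12.6 FPKM in CK3 and 5.72, 2.44 and 2.98 in T3 (log2 fold change -1.72, standard error 0.35, adjusted p = 0.00068). MD11G1229700 (organic cation/carnitine transporter 4-like) read 1.31, 1.8 and 1.6 FPKM in CK2 and 0.47, 0.38 and 0.3 in T2, with a log2 fold change of -0.89 (adjusted p = 0.009). Its call at DAF150 (-0.80) was lost without CK3 replicate 1 (-0.46), CK3 replicate 2 (-0.82), T3 replicate 1 (-0.68) or T3 replicate 2 (-0.68), and with median centring (-0.33) or quantile normalization (-0.12), which also ended the call at DAF60 (-0.089). The polyamine transporters MD03G1006600 and MD11G1009700, the latter named after its values were seen, were not called at any stage. Their values at DAF30 rested on T1 replicate 1, at 7.09 and 6.24 FPKM, while the other T1 libraries lay between 0.28 and 0.43.

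The sugar carriers went in both directions. MD16G1125300 (bidirectional sugar transporter N3-like, of the SWEET family that lets sugars pass the membrane along their gradient) read 8.49, 3.36 and 4.75 FPKM in CK3 and 18.9, 10.7 and 16.4 in T3. All T3 libraries were higher (log2 fold change 1.36, standard error 0.26, adjusted p = 0.0004). MD10G1013100 (SWEET1-like) read 38.5, 9.98 and 4.65 FPKM in CK2 and 0.92, 0.83 and 2.69 in T2, a log2 fold change of -2.52 (adjusted p = 0.00067). The CK2 mean of 17.7 FPKM rested on replicate 1, and the gene model overlaps those of MD10G1012400 and MD10G1012600. The third sugar gene tested, MD05G1012200 (SWEET1-like), was not called at any stage, with values of -0.34, -0.45 and -0.40.

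Both carriers of nucleobases tested changed at DAF60. MD10G1266200 (probable purine permease 10, of a family that carries purines and cytokinins) rose at DAF60, from 0.72, 2.05 and 0.95 FPKM in CK2 to 5.78, 6.74 and 4.89 in T2, and at DAF150 read 0.47, 0.41 and 0.59 FPKM in CK3 against 7.93, 5.97 and 1.91 in T3. The groups were apart at both stages, with log2 fold changes of 1.64 (adjusted p = 0.00067) and 1.93 (adjusted p = 0.00023). MD05G1102000 (nucleobase-ascorbate transporter 4-like) fell at DAF60, from 13.0, 18.1 and 2.84 FPKM in CK2 to 1.36, 1.64 and 0.98 in T2 (log2 fold change -2.12, adjusted p = 0.00177). The call was lost with median centring (-0.97) and with quantile normalization (-0.97). Its order among the CK2 and CK3 libraries was that of the suberized cell list, with replicate 2 highest and replicate 3 lowest.

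A single aquaporin was tested. MD10G1116500 (aquaporin-like, chromosome 10, 19358622 to 19366505) read 9.9, 7.91 and 9.84 FPKM in CK2 and 39.5, 30.6 and 32.1 in T2. The T2 libraries were all above the CK2 libraries, and the log2 fold change was 1.78 (standard error 0.24, adjusted p = 3.6e-05). At DAF30 it read 13.6, 13.0 and 15.9 FPKM in CK1 and 21.7, 19.0 and 21.6 in T1, which did not overlap either, but the log2 difference of 0.52 was not called (adjusted p = 0.166). At DAF150 it was near 0 in both groups, with 0.06, 0.09 and 0.13 FPKM in CK3 and 0.85, 1.15 and 0.33 in T3. That call (log2 fold change 0.67, adjusted p = 0.0311) was lost without CK3 replicate 1 (0.65), CK3 replicate 2 (0.67), T3 replicate 1 (0.63) or T3 replicate 2 (0.52).

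**Figure D4:**
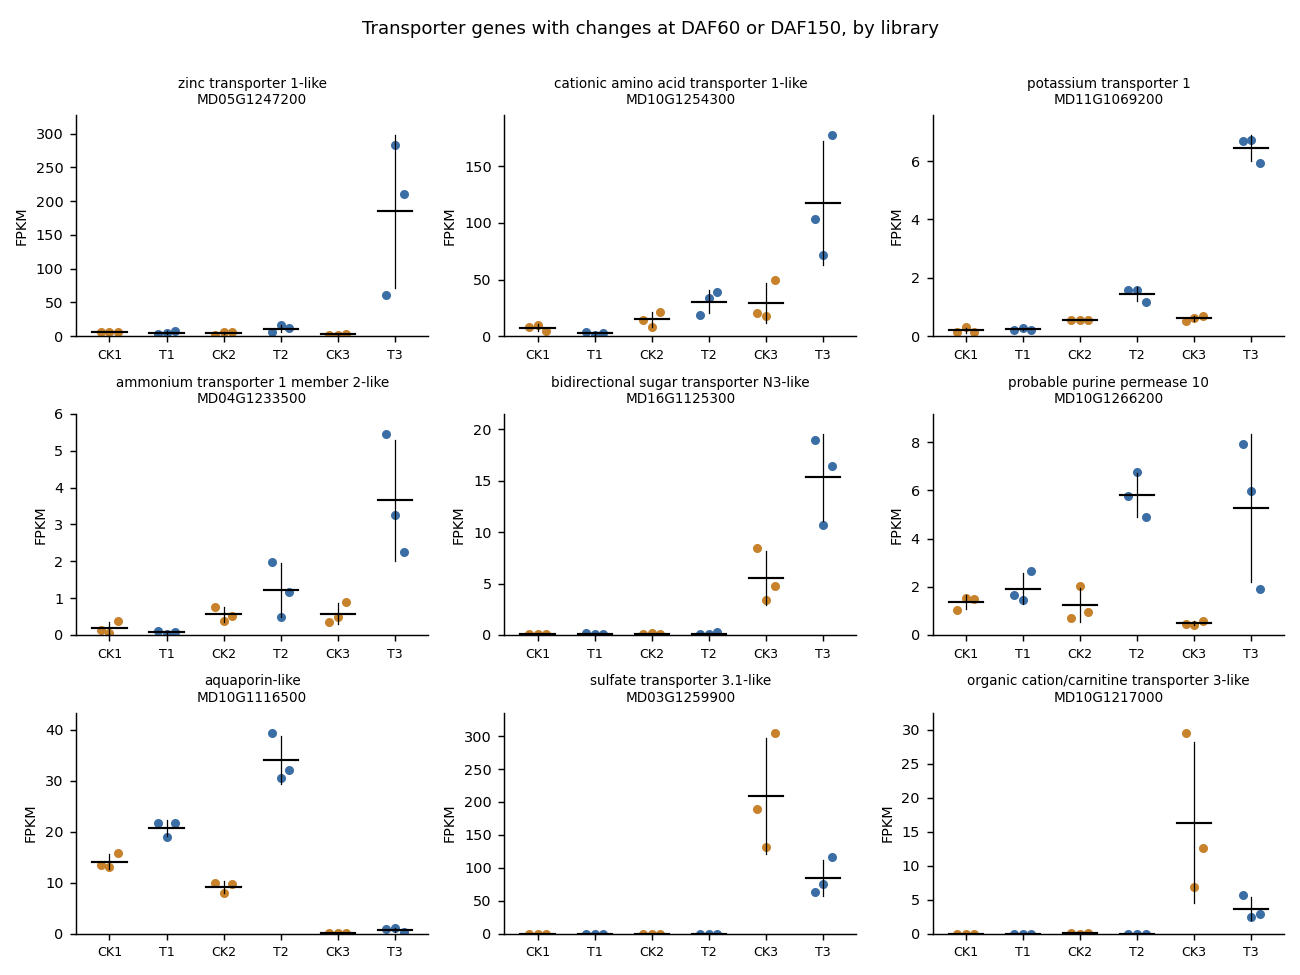
FPKM per library of 9 transporter genes with changes at DAF60 or DAF150, for CK (orange) and T (blue) at DAF30, DAF60 and DAF150 (groups 1, 2 and 3); points are libraries, horizontal bars means and vertical bars 1 SD (n = 3). The zinc transporter 1-like gene reached 61.4 to 283 FPKM in T3 alone, and sulfate transporter 3.1-like rose at DAF150 in both CK and T.

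The stages were also compared within each treatment. In unbagged skin from DAF30 to DAF60, 20 of the 42 genes rose and 2 fell, against 31.3% and 13.5% of all genes tested. Median centring gave 13 rises and 10 falls, against 237 and 418 of the 1399 genes tested. Quantile normalization gave 14 and 5, against 269 and 267. All 12 ABC genes tested rose (8 of 12 after either scaling), with a median of 1.81. Without the CK2 libraries, 9 of the 12 would have met the minimum on low values. The largest rise was that of MD01G1117400 (G family member 6-like), from 0.5, 1.22 and 1.79 FPKM in CK1 to the CK2 values given above (log2 fold change 3.69, standard error 0.52, adjusted p = 0.0001). MD10G1013100 (SWEET1-like, 3.44), MD04G1116300 (20-like, 3.36), MD12G1132000 (20-like, 3.32) and MD15G1145300 (32-like, 3.00) came next. The 2 falls were those of MD04G1124700 (cation/H(+) antiporter 20-like, -1.49) and MD14G1124200 (oligopeptide transporter 7-like, -0.73). MD14G1124200 met the minimum through CK1 only, the group where it was high, which favours a fall from CK1. This comparison uses the same CK2 libraries as the comparison of T2 with CK2.

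From DAF60 to DAF150 in unbagged skin, 8 genes rose and 13 fell, against 17.7% and 39.7% of all genes tested. Median centring gave 12 rises and 6 falls, against 424 and 302 of the 1399 genes tested. Quantile normalization gave 9 and 8, against 324 and 320. MD03G1259900 (sulfate transporter 3.1-like) went from 0.07, 0.19 and 0.06 FPKM in CK2 to 190, 132 and 305 in CK3. This was the largest difference among the 42 genes in any comparison (log2 fold change 7.48, standard error 0.29, adjusted p = 6.5e-12). MD10G1217000 (organic cation/carnitine transporter 3-like, 3.80), MD16G1125300 (sugar transporter N3-like, 2.49), MD11G1229700 (organic cation/carnitine transporter 4-like, 2.00) and MD10G1275200 (sodium-dependent phosphate transporter 1-like, 1.61) also rose. MD10G1275200 met the minimum on low values through CK3 only, which favours a rise to CK3. The aquaporin-like gene MD10G1116500 fell most (-3.22, adjusted p = 3.2e-08), followed by MD10G1013100 (SWEET1-like, -2.10), MD08G1004100 (lysine histidine transporter-like 8, -1.91), MD05G1042600 (ABC G 11-like, -1.78) and MD14G1044500 (ABC G 22-like, -1.65), whose call was lost with median centring (-0.99) and quantile normalization (-1.18). Of the 12 ABC genes 6 fell and 0 rose in this interval (3 under median centring, 4 under quantile normalization), and the G family 6-like and 20-like genes were not among those called, with MD01G1117400 at -0.19.

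In bagged skin from DAF30 to DAF60, 7 genes rose and 7 fell, against 5.86% and 21.2% of all genes tested. Median centring gave 10 rises and 4 falls, against 137 and 154 of the 1399 genes tested. Quantile normalization gave 11 and 6, against 163 and 214. The 14 calls became 7 without T1 replicate 1 or T2 replicate 2 and 8 without T2 replicate 1 or T2 replicate 3. MD10G1254300 (cationic amino acid transporter 1-like) rose most, from 3.45, 1.42 and 2.65 FPKM in T1 to 18.9, 33.7 and 38.6 in T2 (log2 fold change 3.15, adjusted p = 0.00014). MD00G1163400 (oligopeptide transporter 3-like, -2.06), MD05G1042600 (ABC G 11-like, -2.02), MD04G1124700 (cation/H(+) antiporter 20-like, -1.68) and MD03G1188200 (ABC C 3-like, -1.66) fell, and their calls held without each library in turn. Of the 12 ABC genes 1 rose and 2 fell, with a median of 0.07. The gene that rose was MD01G1117400 (1.62, adjusted p = 0.0299), and this call was lost without T1 replicate 1 (1.69), T1 replicate 2 (1.32), T2 replicate 1 (1.52), T2 replicate 2 (1.69) or T2 replicate 3 (1.64).

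From DAF60 to DAF150 in bagged skin, 11 genes rose and 2 fell, against 18.2% and 16.2% of all genes tested. This split changed little after median centring (10 and 2), against 255 rises and 271 falls among the 1399 genes tested. MD03G1259900 (sulfate transporter 3.1-like) rose by 6.31 on the log2 scale, from 0.04, 0.04 and 0.05 FPKM in T2 to 62.9, 75.7 and 116 in T3. MD16G1125300 (sugar transporter N3-like, 3.83), MD05G1247200 (zinc transporter 1-like, 3.75), MD10G1217000 (organic cation/carnitine transporter 3-like, 2.17) and MD11G1229700 (organic cation/carnitine transporter 4-like, 2.09) followed. Of these 5, all but the zinc transporter also rose in unbagged skin between the same stages. MD05G1247200 had a log2 difference of -0.59 there and was not called (adjusted p = 0.322). The aquaporin-like gene fell in bagged skin as in unbagged skin, from the T2 values above to those of T3 (log2 fold change -4.32, adjusted p = 1.1e-09). Of the 2 falls, the other was that of MD13G1045300 (lysine histidine transporter-like 6, -0.84). This gene met the minimum on low values through T2 only, which favours a fall from T2.

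**Figure D5:**
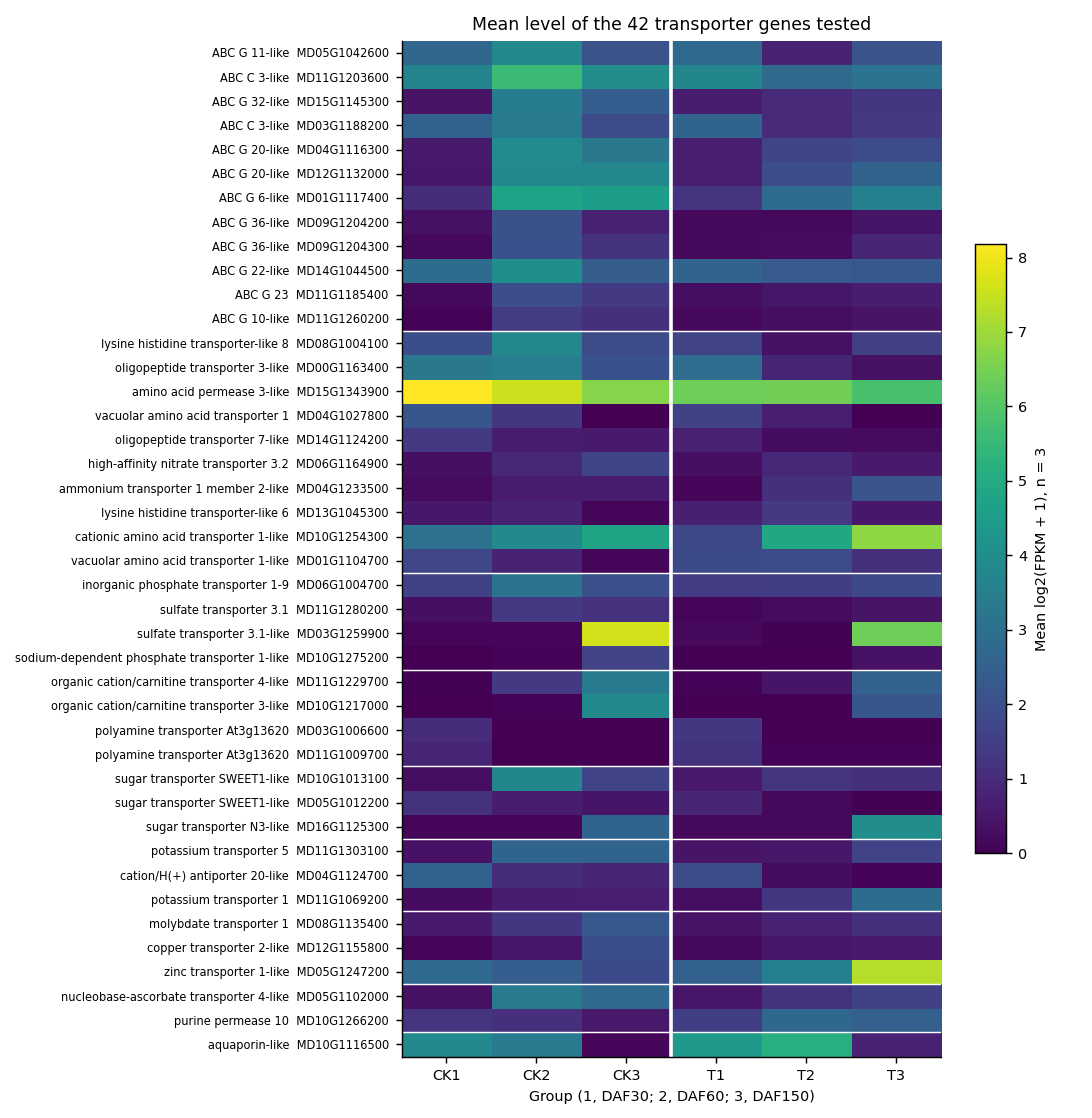
Mean log2(FPKM + 1) of the 42 transporter genes tested in each group (n = 3 libraries), unbagged (CK) on the left and bagged (T) on the right, in the order of substrates used for the fold changes; the colour scale starts at 0. ABC genes are brightest in CK2 (8 of 12 rose from CK1 to CK2 after either scaling, 12 before), and sulfate transporter 3.1-like is bright in CK3 and T3 only, by 7.48 and 6.31 over DAF60.

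Whether the response to the bag itself differed between stages was tested as the difference of the differences. From DAF30 to DAF60, 17 of the 42 genes moved to a lower and 3 to a higher value of T over CK. Among all genes tested the shares were 37.2% and 6.15%. Median centring gave 5 lower and 10 higher, against 105 and 303 of the 1399 genes tested. Quantile normalization gave 7 and 7, against 159 and 180. The ABC genes made up 11 of the 17, with a median of -2.07 over the 12 (3 of 12 called after centring and 5 after quantile normalization). That count fell to 6 without CK2 replicate 2, T1 replicate 3 or T2 replicate 3. The largest were MD05G1042600 (ABC G 11-like, -3.19, adjusted p = 0.00219) and MD08G1004100 (lysine histidine transporter-like 8, -3.11, adjusted p = 0.0022). MD10G1254300 (cationic amino acid transporter 1-like, 2.31), MD10G1266200 (purine permease 10, 1.35) and MD10G1116500 (aquaporin-like, 1.25) moved higher. The call of MD10G1266200 was lost without any of 8 libraries, with values of 1.18 to 1.35.

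From DAF60 to DAF150, 9 genes moved higher and 3 lower, against 14.2% and 5.15%. Median centring gave 4 higher and 7 lower, against 69 and 206 of the 1399 genes tested. Quantile normalization gave 9 and 5, against 111 and 152. The zinc transporter 1-like gene moved most (4.35, adjusted p = 0.0008), and MD05G1042600 (ABC G 11-like, 3.11) and MD08G1004100 (lysine histidine transporter-like 8, 3.06) moved back by about as much as they had moved before. From DAF30 to DAF150, 6 moved higher and 5 lower, against 13.4% and 21.1%. Either scaling gave 6 higher and 2 lower. Over the 1399 genes tested these counts were 288 and 244 after centring and 196 and 251 after quantile normalization. Without CK3 replicate 3 the split before scaling became 6 higher and 12 lower. The zinc transporter 1-like gene (5.67), the cationic amino acid transporter 1-like gene MD10G1254300 (3.30) and potassium transporter 1 (MD11G1069200, 2.17) led the rises over this span. These comparisons share the libraries of each stage and are not independent of one another.

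The 41 genes below the minimum were low throughout. Of these, 29 never reached 1 FPKM in any library, and the highest single value was 4.9 FPKM, of MD14G1151300 (bidirectional sugar transporter N3, named after its values were seen) in CK3 replicate 1, where replicates 2 and 3 read 0.06 and 0.24. The aquaporins MD05G1114500 (PIP2-6) and MD06G1241500 (TIP3-2) stayed at or below 0.67 FPKM, and both were listed at 0 in all T2 libraries. The only carrier of organic acids, MD11G1173000 (aluminum-activated malate transporter 2-like), was at 2.03 FPKM in CK3 replicate 1 and at or below 0.53 in the other libraries. The lipid transporters MD12G1201800 and MD01G1046600 (spinster homologs), the mitochondrial carrier MD09G1211700 and MD10G1224300 (purine permease 4) did not exceed 1.0 FPKM. With such values no test was made, and the fragments behind a value are not known.

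Genes of membrane transport outside the wording of the rule (channels, exchangers, MATE exporters, pumps) number 54 in the table, of which 26 were tested. At DAF30, 6 of them were lower and 0 higher in bagged skin, beside 12.4% and 2.07% of all genes tested. At DAF60, 10 were lower and 4 higher, beside 61.9% and 9.51%, and at DAF150 6 were lower and 3 higher, beside 31.5% and 12.6%. The share lower at DAF60 was thus 38.5% of 26 there, and 54.8% of the 42 transporter genes or 36.7% of the 30 that are not ABC transporters, all below the 61.9% of all genes tested. No test of these shares was made.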

How the data were processed

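RNA was taken from fruit skin and sequenced on a BGISEQ-500, and the authors mapped reads with Bowtie2 to the apple genome GDDH13 v1.1 with a counting step that is not given in the sources used here. As deposited, the values are FPKM per gene and library, and the deposited table holds only the 2856 genes whose log2 ratio of T to CK by the authors is 1 or more in size, with a q-value up to 0.001. Both of these columns, the authors' log2 ratio and q-value, were read only to learn this filter. The paper reports an average sequencing output per sample, but the fragments counted for each gene and library are not given with the values. No counting interval is therefore given, and levels near 0 are imprecise. limma 3.58.1 (R 4.3.3, trend and robust moderation) was fitted to log2(FPKM + 1) of 1399 genes in all 18 libraries with 6 group means and 11 comparisons. Fold changes on this scale understate the change of low genes. Alternatives were other pseudocounts and filters, median centring, quantile normalization, a replicate block, only the groups compared and each library left out. The script was tested on simulated data. Named genes, 43 in all, were in each substrate group the 3 of highest mean FPKM and the 2 largest called rises and falls at each stage, and the 5 largest called rises and falls of each other comparison. The 83 genes, the lists and the rules were chosen with earlier results of these data known. Sequences were not used here.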

Additional observations from a re-analysis of the deposited data

Results flagged for a closer look

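The response to bagging (log2 fold change of T over CK) differed between stages, by the difference of differences in limma with Benjamini-Hochberg adjustment, for the genes given here. Each span shares the libraries of 1 stage with each other span. Of 20 calls from DAF30 to DAF60, 11 held without each library in turn, 8 after median centring and 10 after quantile normalization. Of 12 from DAF60 to DAF150 these counts were 9, 7 and 11, and of 11 from DAF30 to DAF150 they were 8, 8 and 7. The calls lost without at least 1 library were, from DAF30 to DAF60, those of MD01G1117400, MD04G1116300, MD05G1102000, MD10G1266200, MD11G1185400, MD11G1280200, MD11G1303100, MD12G1132000 and MD14G1044500. From DAF60 to DAF150 they were those of MD10G1116500, MD10G1217000 and MD11G1203600, and from DAF30 to DAF150 those of MD03G1259900, MD06G1164900 and MD08G1135400.

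From DAF30 to DAF60 the response of ABC transporter genes moved down by the following log2 values. It was -3.192 for MD05G1042600 (G 11-like), -2.798 for MD11G1203600 and -2.514 for MD03G1188200 (both C 3-like). It was -2.68 for MD15G1145300 (G 32-like), -2.335 for MD04G1116300 and -2.07 for MD12G1132000 (both G 20-like), and -2.072 for MD01G1117400 (G 6-like). It was -1.833 for MD09G1204300 and -1.684 for MD09G1204200 (both G 36-like), -1.593 for MD11G1185400 (G 23) and -1.439 for MD14G1044500 (G 22-like). MD09G1204200 and MD11G1185400 met the minimum on low values through CK2 only. Outside the ABC family the value was -3.11 for MD08G1004100 (lysine histidine transporter-like 8), -2.765 for MD10G1013100 (SWEET1-like) and -2.282 for MD00G1163400 (oligopeptide transporter 3-like). It was -2.254 for MD05G1102000 (nucleobase-ascorbate transporter 4-like), -2.141 for MD11G1303100 (potassium transporter 5) and -0.935 for MD11G1280200 (sulfate transporter 3.1). The response moved up by 2.307 for MD10G1254300 (cationic amino acid transporter 1-like), 1.351 for MD10G1266200 (purine permease 10) and 1.253 for MD10G1116500 (aquaporin-like).

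From DAF60 to DAF150 the response moved up by 4.347 for MD05G1247200 (zinc transporter 1-like), 3.108 for MD05G1042600, 3.063 for MD08G1004100 and 1.875 for MD03G1188200. It moved up by 1.792 for MD11G1203600, 1.568 for MD11G1069200 (potassium transporter 1), 1.527 for MD09G1204200, 1.48 for MD09G1204300 and 1.342 for MD16G1125300 (sugar transporter N3-like). It was -1.632 for MD10G1217000 (organic cation/carnitine transporter 3-like), -1.234 for MD10G1275200 (sodium-dependent phosphate transporter 1-like) and -1.104 for MD10G1116500. Here MD09G1204200 met the minimum on low values through CK2 only and MD10G1275200 through CK3 only, groups that enter this difference.

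From DAF30 to DAF150 it moved up by 5.671 for MD05G1247200, 3.3 for MD10G1254300, 2.166 for MD11G1069200, 1.652 for MD04G1233500 (ammonium transporter 1 member 2-like), 1.638 for MD10G1266200 and 1.308 for MD16G1125300. It was -1.725 for MD10G1217000, -1.338 for MD03G1259900 (sulfate transporter 3.1-like), -1.304 for MD10G1275200, -1.112 for MD06G1164900 (nitrate transporter 3.2) and -0.971 for MD08G1135400 (molybdate transporter 1). In this list MD04G1233500 met the minimum on low values through T3 only, and MD10G1275200 and MD06G1164900 through CK3 only.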

How the results depend on the processing

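Of the 47 calls of T against CK at single stages, 34 held without each library in turn. The 2 calls at DAF30 became 1 with a pseudocount of 0.1, with a minimum of 5 FPKM, after median centring or with only the groups compared, and 5 with no filter. The minimum of 5 FPKM, which leaves 22 genes, gave 17 calls for 28 at DAF60, 22 for 38 over the stages, 12 for 22 and 11 for 21 in CK to DAF60 and to DAF150, 9 for 14 in T to DAF60, and 7 for 11 for the response from DAF30 to DAF150. No filter gave 35 for the 22 in CK to DAF60. Quantile normalization gave 17 at DAF60 and 15 over the stages, and median centring 14 over the stages. At DAF60 centring turned MD04G1124700 to 0.354, MD08G1135400 to 0.633, MD11G1229700 to 0.269, MD11G1260200 to 0.046 and MD11G1280200 to 0.037, and quantile normalization turned MD08G1135400 to 0.471. Apart from the smaller number of genes tested, the cause was not tested.

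Leaving out 1 library gave 0 to 2 calls at DAF30, 24 to 30 at DAF60, 13 to 26 at DAF150 and 35 to 38 over the stages. It gave 19 to 24 and 18 to 23 in CK, and 7 to 15 and 10 to 14 in T. For the responses it gave 14 to 22 (DAF30 to DAF60), 10 to 14 (DAF60 to DAF150) and 9 to 18 (DAF30 to DAF150).

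The deviations of libraries with the same replicate number correlated at -0.347 to 0.394 over 45 pairs, 17 of them above 0.1. Between CK2 and CK3 the values were -0.071, 0.261 and 0.394 for replicates 1, 2 and 3. Libraries of unlike number were not compared, so whether the numbers pair the libraries is not settled. With a replicate block the counts were 2, 28 and 19 at DAF30, DAF60 and DAF150, 38 over the stages, 22 and 21 in CK, 13 and 13 in T, and 22, 14 and 11 for the responses.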
